A study of Homo sapiens with 10 samples.

Results

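The cytosolic ribosomal protein genes encode the protein parts of the ribosome outside mitochondria. They were taken here as the protein-coding genes whose symbol begins with RPL or RPS and a digit, together with RPLP0, RPLP1, RPLP2 and RPSA. Genes of the RPS6K kinase family, RPS19BP1 and pseudogenes were left out. The rule gave 90 of the 60623 gene identifiers in the files, of which 52 carry names of the large subunit, 3 of its stalk and 35 of the small subunit. Of these, 84 passed the filter on low counts and were tested among 18450 genes. The other 6 were RPL3L, RPS4Y1, RPS4Y2 and the readthrough genes RPL17-C18orf32, RPL36A-HNRNPH2 and RPS10-NUDT3, each of which joins a ribosomal protein gene to its neighbour.

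A ribosome holds most of these proteins in equal numbers, and cells make them in matched amounts. Most of their messenger RNAs begin with a C followed by a run of C and T (U in the RNA), the 5′ terminal oligopyrimidine tract, which places their translation under the control of the kinase mTOR through LARP1. MYC is known for raising transcription of ribosomal protein and ribosome biogenesis genes, and PHF10 belongs to PBAF, which remodels nucleosomes.

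Messenger RNA was sequenced in A375 cells, a line from a human melanoma that carries mutant BRAF, 72 h after transfection. Experiment 1 had 4 libraries with small interfering RNA (siRNA) to PHF10 and 2 controls, and experiment 2 had 2 libraries labelled MYC knockdown and 2 controls of its own. The labels' siRNA field calls all 4 controls untreated, whereas the series' own account gives them a control siRNA. The titles of the PHF10 libraries hold the word total, which the labels do not explain. The labels do not say whether replicates were separate cultures, and p-values therefore measure the spread between these libraries, which may be technical.

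The libraries held 20.5 to 38.4 M gene reads in the strand column used. PHF10 mRNA measured 15.0 to 18.0 CPM (counts per 1 M gene reads, over library sizes scaled by edgeR's TMM) in the PHF10 knockdown libraries and 40.1 and 36.6 CPM in the controls of that experiment (edgeR log2 fold change −1.24, adjusted p = 0.00105). In experiment 2 the groups overlapped in MYC mRNA, with 16.7 and 13.3 CPM with the MYC knockdown label, against 15.0 and 26.5 CPM in their controls (adjusted p = 0.688). Directions in that comparison therefore rest on the labels. PHF10 also measured 119 to 125 CPM throughout experiment 2, above every library of experiment 1, so the experiments differed in more than the siRNA. Of the melanocytic markers SOX10 (528 to 948 CPM), MITF (16.8 to 55.3 CPM) and S100B (11.03 to 82.1 CPM) were present, whereas PMEL, MLANA, TYR and DCT stayed at or under 2.54 CPM in every library. The immune, endothelial and epithelial markers were near 0, with KRT14 the highest at 2.86 to 11.3 CPM.

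The starts of the genes on which the results turn are shown first, because the tract there is the feature that most of the family shares and several of its paralogs lack. RefSeq's table of promoters on GRCh38.p14 had entries for 72 of the 90 genes, with 89 listed starts. Each line gives 40 bases before and 25 bases from the listed start onward, on the gene's own strand, and the capitals mark an unbroken run of C and T that begins with C at the start. RPLP0 lies at chr12:120201087-120201151 (minus strand), RPS6 at chr9:19380212-19380276 (minus), RPL13A at chr19:49487568-49487632 (plus) and RPL39 at chrX:119791606-119791670 (minus). They stand for the stalk, for the small subunit, for the gene with the highest level and for a run of 19 bases. RPL22 at chr1:6199571-6199635 (minus) stands beside its paralog RPL22L1 at chr3:170870171-170870235 (minus), and RPS27 at chr1:153990722-153990786 (plus) beside RPS27L at chr15:63157453-63157517 (minus). RPL7L1 at chr6:42879576-42879640 (plus) was the one gene called after PHF10 knockdown.
RPLP0: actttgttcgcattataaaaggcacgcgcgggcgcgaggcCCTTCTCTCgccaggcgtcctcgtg
RPS6: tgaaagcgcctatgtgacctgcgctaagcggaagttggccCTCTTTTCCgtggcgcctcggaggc
RPL13A: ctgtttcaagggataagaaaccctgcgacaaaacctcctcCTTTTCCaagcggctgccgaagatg
RPL39: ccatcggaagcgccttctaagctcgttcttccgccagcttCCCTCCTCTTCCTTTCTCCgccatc
RPL22: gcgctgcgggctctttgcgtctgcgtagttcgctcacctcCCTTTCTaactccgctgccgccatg
RPL22L1: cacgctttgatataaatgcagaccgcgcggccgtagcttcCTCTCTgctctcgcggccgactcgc
RPS27: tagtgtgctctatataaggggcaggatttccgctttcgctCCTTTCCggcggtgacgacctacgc
RPS27L: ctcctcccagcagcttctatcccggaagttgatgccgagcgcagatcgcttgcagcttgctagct
RPL7L1: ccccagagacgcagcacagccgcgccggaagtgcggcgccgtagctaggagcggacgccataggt

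A start of this kind, a C followed by at least 4 further C or T, was found at a listed start of 49 of the 72 genes (68.1%), against 6.24% of 15843 protein-coding genes in the same table. The paralogs RPL7L1, RPS27L, RPL10L, RPL26L1 and RPL36AL had none at a listed start, and RPL22L1 had a run of 6 bases. Such a run beginning within 10 bases of a listed start was found in 62 of the 72 genes (86.1%), against 41.1% of all. RPL36AL was among these, whereas RPL7L1, RPS27L, RPL10L and RPL26L1 were not. Other short motifs were searched on both strands in windows of 250 bases before to 50 bases after the start. CACGTG, the sequence that MYC and its partner MAX are known to bind, was in the windows of 5 of the 72 genes (6.94%), namely RPL13A, RPL19, RPL7L1, RPS19 and RPS28, against 10.9% of all protein-coding genes. CCGGAAG, a core bound by ETS factors, was in 33.3% of the family's windows against 16.5% of all. The TATA sequence TATAAA was in 11.1% against 12.4%, and AANATGGC, a core of the YY1 motif, in 15.3% against 9.67%. The CACGTG of RPS28, in capitals, lies just before its start at chr19:8321456-8321520 (plus).
RPS28: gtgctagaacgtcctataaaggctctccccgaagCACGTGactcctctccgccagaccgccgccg

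Levels were compared between genes per kb of annotated exon (GENCODE 29), as mean CPM per kb over the 10 libraries. The 84 tested genes spanned 0.524 to 957 CPM per kb with a median of 155. RPL13A had the highest level (957 CPM per kb), followed by RPS12 (786) and RPS6 (775), the small-subunit protein that S6 kinases phosphorylate. The lowest were RPL17 (3.41), RPS10 (1.39) and RPL10L (0.524), a copy of X-linked RPL10 that is known for its role in the testis. Only reads that mapped once and to 1 gene were counted, and the part of this in the low values was not tested. RPS10 shared 39.4% of its exon bases with other genes on its strand, including RPS10-NUDT3, and RPL17 shared 32.7%, including RPL17-C18orf32. The 1599 annotated pseudogenes named after members took 0.628% to 0.710% of the reads of members and pseudogenes together. Reads at several places, which were not counted, made up 4.98% to 6.36% of a library.

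The family was not at one level within each group of experiment 1. Its summed level over all 90 genes was 4.06%, 4.02%, 6.42% and 6.39% of TMM-scaled gene reads in replicates 1 to 4 of PHF10 knockdown, against 3.53% and 5.81% in control replicates 1 and 2. Replicates 1 and 2 of PHF10 knockdown and replicate 1 of the controls were thus low, and the other 3 libraries high, so that the groups overlapped. Experiment 2 was tighter, with 5.53% and 5.42% in libraries labelled MYC knockdown, against 5.93% and 5.88% in their controls, which did not overlap. As plain shares of gene reads the 10 libraries ran from 3.71% to 6.42%, with 95% Wilson intervals at most 0.0197 percentage points wide, which cover counting error only. In bulk samples a change in the share of cells and a change in RNA per cell cannot be told apart.

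**Figure D1:**
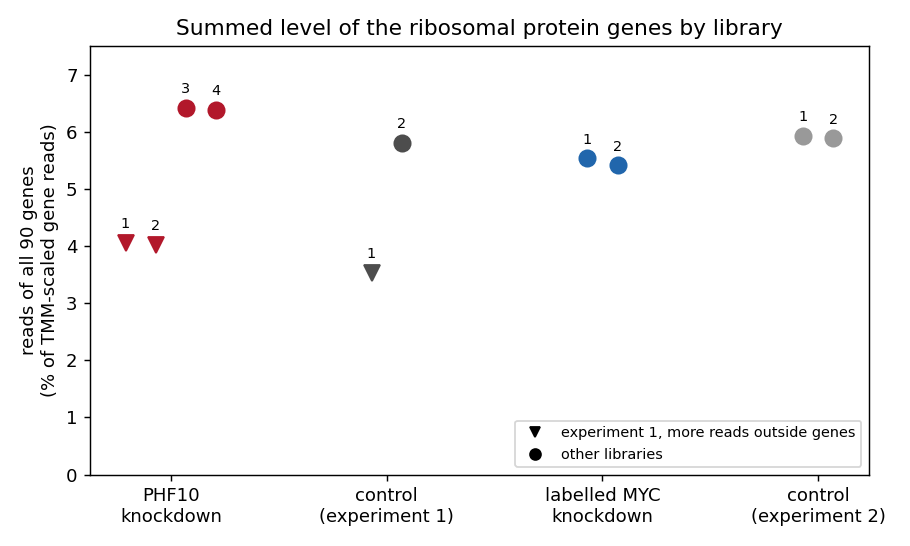
Summed level of all 90 cytosolic ribosomal protein genes in each library, as a percentage of TMM-scaled gene reads, by group. Numbers are replicates, and triangles mark the 3 libraries of experiment 1 with more reads outside genes (on no gene feature of the counted strand). The triangles sit at 3.53% to 4.06% and every other library at 5.42% to 6.42%.

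The 3 low libraries of experiment 1 were also those with the larger share of reads on no gene feature of the counted strand. Such reads are called reads outside genes here, although reads in introns or on a gene's opposite strand can be among them. That share was 13.8%, 12.3% and 12.1% in PHF10 knockdown replicates 1 and 2 and control replicate 1, and 10.1%, 10.6% and 9.93% in PHF10 knockdown replicates 3 and 4 and control replicate 2. The mean log2 CPM of 39 type I interferon genes moved with it, at 7.63, 7.33 and 7.97 in the first 3 libraries and 3.53, 4.82 and 4.67 in the other 3. Reads mapped to several places were fewer in the first 3 (5.05%, 5.42% and 4.98%) than in the other 3 (6.15%, 5.87% and 5.84%). The part of any of these in the family's levels was not tested, and no label names a batch within experiment 1.

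The family's split between these parts of experiment 1 was large and nearly uniform. Of 84 genes, 76 (90.5%) had all 3 libraries with more reads outside genes below the other 3 and 0 had all 3 above, against 9.13% and 9.43% of all genes tested. The median difference in log2 CPM was −0.60, with 82 of 84 genes negative, against a median of 0.01 over all genes. It was −0.58 among the PHF10 knockdown libraries alone and −0.65 among the controls alone. RPS3A, of the small subunit, had the largest difference (−1.12). Its level was 209.7 and 245 CPM in PHF10 knockdown replicates 1 and 2 and 211 CPM in control replicate 1, and 526, 456 and 465 CPM in PHF10 knockdown replicates 3 and 4 and control replicate 2. RPL7 (−1.11), RPL3 (−0.996), RPLP0 (−0.99) and RPL5 (−0.91) followed. RPL10L and RPS10, both with few reads, had the 2 positive differences (0.47 and 0.10).

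Several paralogs differed little between the parts. The differences in log2 CPM were −0.05 for RPS27L, −0.18 for RPL7L1 and −0.22 for RPL36AL. RPL39L, with few reads, had −0.09, but this joined opposite differences. They were −0.36 among the PHF10 knockdown libraries and 0.46 between the controls. The 7 tested paralogs had a median difference of −0.18 and the other 77 genes one of −0.62. RPL22L1, at −0.54, was nearer to the 77 than to the other paralogs. By kind of start, the median was −0.60 over 47 tested genes with the tract at a listed start and −0.57 over 21 with an entry and none there. It was −0.61 over 16 with no entry. Several of the 21, among them RPL36AL, RPL4 and RPS28, had such a run within 10 bases of a start. The division therefore does not separate genes with a tract from genes without. These values describe 6 libraries whose parts were drawn from the data, and were given no test. RPS3A and the other genes singled out between the parts were chosen after their values were seen.

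**Figure D2:**
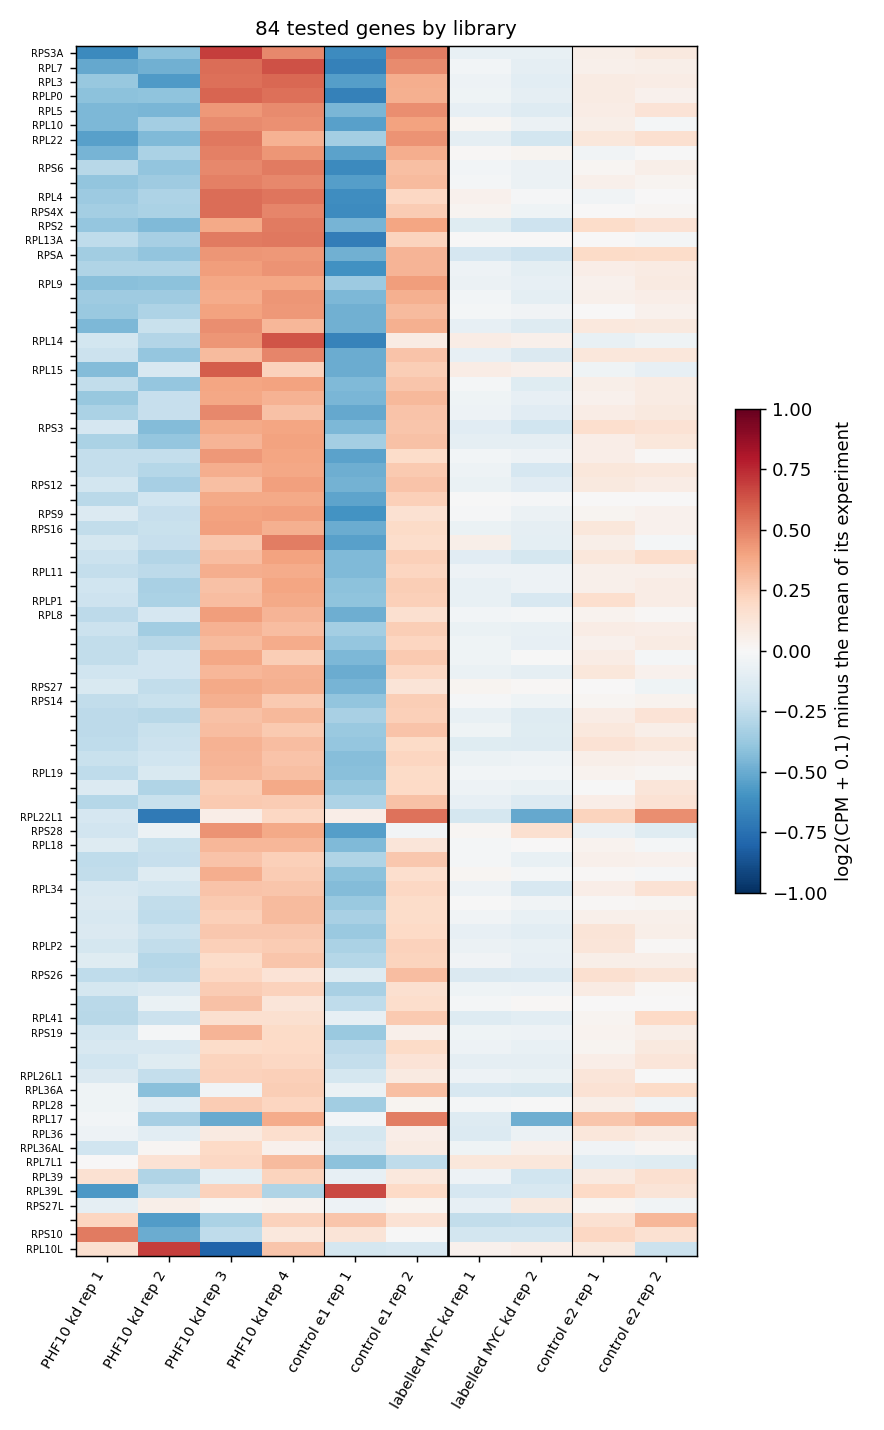
Log2(CPM + 0.1) of each of the 84 tested genes in each library, minus the mean of its experiment (red above, blue below), with genes ordered by the difference between the parts of experiment 1; only genes named in the text are labelled. Most rows are blue in PHF10 knockdown replicates 1 and 2 and control replicate 1 and red in the other 3 libraries of experiment 1, whereas experiment 2 (right of the thick line) is pale.

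The comparison of PHF10 knockdown with its controls asks which genes depend on this PBAF subunit. In the fit of all libraries 1 member was called higher and 0 lower at a Benjamini-Hochberg adjusted p under 0.05 (edgeR quasi-likelihood), against 2.75% and 3.58% of all genes tested. DESeq2 gave the same counts, against 5.64% and 6.18% of all genes, as did limma-voom, against 2.39% and 3.51%. At an unadjusted p under 0.05 edgeR gave 1 higher (RPL7L1) and 1 lower (RPL39L), against 11.2% and 11.5% of all genes. With experiment 1 fitted alone 0 members passed in either direction, against 0.129% higher and 0.151% lower of 17849 genes. The median log2 fold change was 0.12 with 72 of 84 positive, against 0.02 over all genes. That median rested on which libraries were used: it was −0.17 without control replicate 1 and 0.50 without control replicate 2. Without PHF10 knockdown replicate 3 or 4 it was 0.02 or 0.01, with 50 or 49 of 84 positive. Without PHF10 knockdown replicate 1 or 2 it was 0.22 or 0.23. All 4 PHF10 knockdown libraries lay above both controls in 1 member and below both in 0, against 13.4% and 13.7% of all genes.

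RPL7L1 (ENSG00000146223, chr6:42879618-42889925, plus strand), named for its likeness to the large-subunit gene RPL7, was the member called. It measured 109, 120.3, 126 and 135 CPM in the 4 PHF10 knockdown libraries and 81.9 and 91.5 CPM in the controls. The groups did not overlap, and the log2 fold change was 0.50 (SE 0.11, edgeR adjusted p = 0.0302; n = 4 and 2). The increase was about as large in both parts of experiment 1, at 0.49 in the part with more reads outside genes and 0.51 in the other. The call was lost without either control (adjusted p = 0.204 without replicate 1 and 0.126 without replicate 2) and with experiment 1 fitted alone (0.157). It was also lost without any one library of experiment 2 (adjusted p = 0.0761 to 0.0792) and with no filter on low counts (0.065). RPL7 itself measured 509, 518, 1065 and 1124 CPM in PHF10 knockdown and 453 and 1006 CPM in the controls (log2 fold change 0.14, SE 0.39, adjusted p = 0.877).

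Within each part of experiment 1, most members were somewhat higher in PHF10 knockdown. The median log2 difference was 0.15 in the part with more reads outside genes (PHF10 knockdown replicates 1 and 2 minus control replicate 1), with 72 of 84 genes above 0. It was 0.10 in the other part (replicates 3 and 4 minus control replicate 2), with 69 above 0, and the medians over all genes were 0.00 in both. In 54 of 84 genes (64.3%) both PHF10 knockdown libraries lay above their control in each part, and in 5 (RPL17, RPL22L1, RPL41, RPL9 and RPS26) both lay below, against 22.7% and 22.9% of all genes. Each part had a single control, so an error in that one library would move every gene of its part together.

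A fit with a term for the parts, added after the data were seen, narrowed the errors and called 15 members higher and 0 lower, against 5.82% and 7.56% of all genes. The median log2 fold change was 0.13. RPL7L1 (0.50, SE 0.08, adjusted p = 0.0049) led, followed by RPL14 (0.44), RPS28 (0.43), RPL13A (0.35), RPS9 (0.34) and RPL4 (0.32). RPS4X, RPL8, RPS27, RPS6, RPL28, RPLP0, RPL18 and RPS16 were among those that rose by less, with log2 fold changes of 0.23 to 0.28. By subunit 7 of 49 large-subunit genes, 7 of 32 small-subunit genes and 1 of 3 stalk genes rose. Members outside the naming rule are listed here because they were called, after their values were seen.

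RPS28 and RPL13A show the pattern. RPS28, of the small subunit, measured 218, 239, 339 and 324 CPM in replicates 1 to 4 of PHF10 knockdown, against 170.2 and 245 CPM in control replicates 1 and 2. RPL13A, of the large subunit, measured 1725, 1638, 2954 and 2971 CPM in PHF10 knockdown and 1279 and 2409.6 CPM in the controls. Over all libraries the groups overlapped in both genes, since control replicate 2 lay above PHF10 knockdown replicates 1 and 2, whereas within each part both PHF10 knockdown libraries lay above the control. In the fit without the term their log2 fold changes were 0.43 (SE 0.21, edgeR adjusted p = 0.264) and 0.33 (SE 0.32, adjusted p = 0.591). Without the 3 libraries with more reads outside genes, 3 members were called higher, RPL7L1, RPL4 and RPL13A, and 0 lower, against 1.84% and 2.43% of all genes. Without the other 3 there were 0 in either direction, against 0.701% higher and 1.92% lower of all genes.

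**Figure D3:**
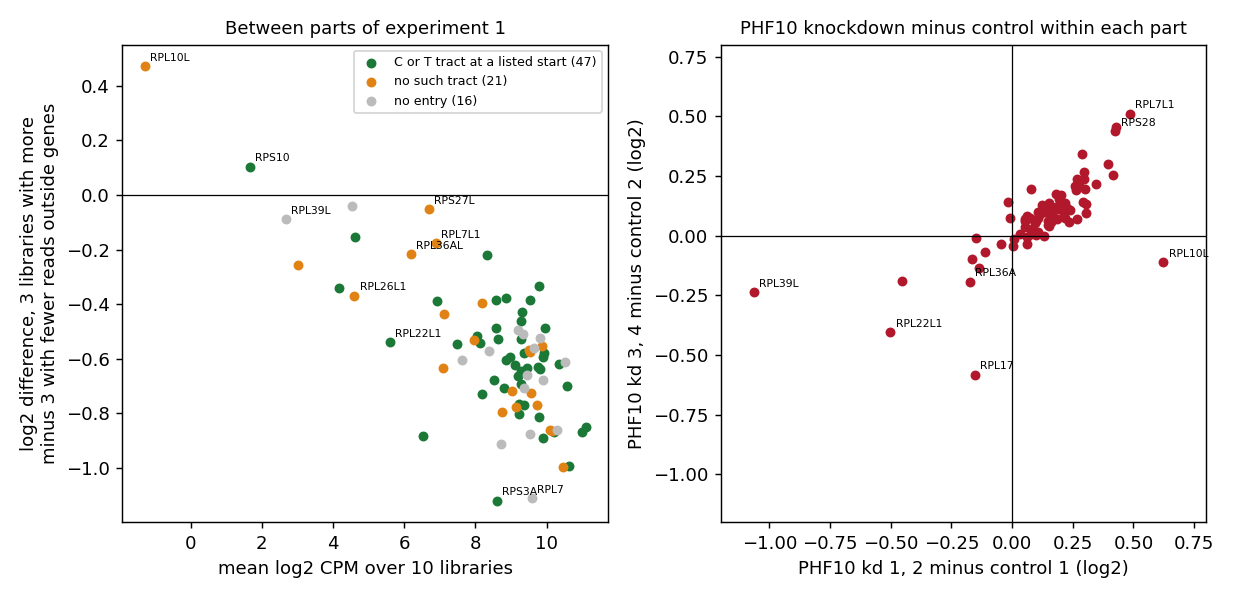
Left, the log2 CPM difference between the 3 libraries of experiment 1 with more reads outside genes and the 3 with fewer, against mean log2 CPM, for each of the 84 tested genes; colours give the kind of start. Right, the log2 difference of PHF10 knockdown minus control within each part (kd, knockdown; numbers are replicates). On the left 82 of 84 genes lie below 0, and on the right most lie above 0 on both axes, with RPL7L1 at 0.49 and 0.51.

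None of the members named for their roles passed after PHF10 knockdown in the fit of all libraries without that term. RPLP0, the base of the stalk that binds elongation factors, measured 1015, 1024, 2021 and 1979 CPM in PHF10 knockdown and 849 and 1733 CPM in the controls (log2 fold change 0.23, SE 0.36, edgeR adjusted p = 0.768). RPLP1 and RPLP2, which form the rest of the stalk, had log2 fold changes of 0.12 (SE 0.25) and 0.05 (SE 0.20). RPS6 measured 1525, 1402, 2569.6 and 2648 CPM in PHF10 knockdown and 1187 and 2276 CPM in the controls (0.23, SE 0.33). In each of these the spread within a group exceeded the difference between groups. RPL5 and RPL11, which join 5S rRNA and can bind MDM2 when ribosome assembly is disturbed, had log2 fold changes of −0.01 (SE 0.33) and 0.17 (SE 0.25). RPS14, RPS19 and RPL10, whose lesions are known from blood diseases, had 0.10 (SE 0.23), 0.24 (SE 0.18) and 0.09 (SE 0.33). RPSA, a small-subunit protein also known as a laminin receptor, had 0.10 (SE 0.30). The edgeR adjusted p-values of these 10 genes were 0.474 to 0.996.

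The paralogs did not move as one. RPL22L1 (ENSG00000163584, chr3:170864875-170870483, minus strand), a paralog of RPL22 that is known to rise when RPL22 is lost, measured 55.7, 38.3, 65.5 and 72.0 CPM in PHF10 knockdown and 65.4 and 90.9 CPM in the controls. Its log2 fold change was −0.43 (SE 0.24, edgeR adjusted p = 0.314), and the groups overlapped. Within the parts of experiment 1 it was −0.50 and −0.40. RPL39L, a paralog of RPL39 known from the testis and from cancers, measured 3.58, 4.58, 6.30 and 4.34 CPM in PHF10 knockdown and 8.54 and 6.18 CPM in the controls (−0.64, SE 0.23, adjusted p = 0.128). It was called lower without PHF10 knockdown replicate 3 (−0.82). RPL26L1 (0.07), RPL36AL (0.05) and RPS27L (0.02) had smaller log2 fold changes with SE of 0.16, 0.13 and 0.10. RPL10L stayed at 0.296 to 1.01 CPM in PHF10 knockdown and at 0.511 and 0.519 CPM in the controls.

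**Figure D4:**
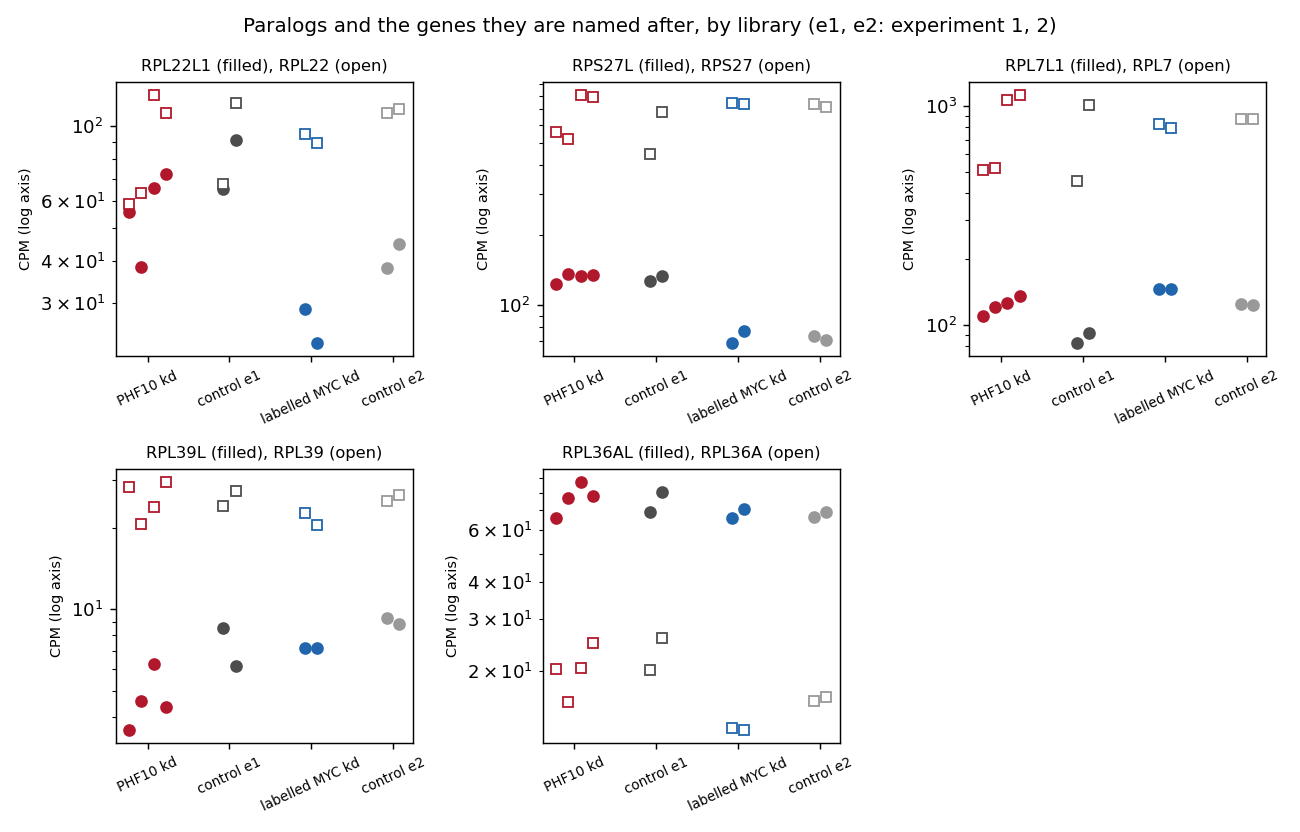
CPM of 5 paralogs (filled circles) and of the genes they are named after (open squares) in each library, on a log axis, by group (e1 and e2, experiments 1 and 2; kd, knockdown). RPL7L1 lies higher in PHF10 knockdown than in its controls, RPL22L1 lies lowest in the libraries labelled MYC knockdown, and RPS27L lies at 124 to 137 CPM throughout experiment 1 and at 68.2 to 77.4 CPM throughout experiment 2.

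The libraries labelled MYC knockdown were compared with the controls of experiment 2, a comparison that by its labels asks about a known regulator of ribosome production. In the fit of all libraries 0 members were called in either direction by edgeR, DESeq2 or limma-voom, against 0.282% higher and 0.211% lower over all genes by edgeR. Over all genes DESeq2 called 1.94% higher and 1.97% lower, and limma-voom 0.705% and 0.439%. At an unadjusted p under 0.05 edgeR gave 0 higher and 1 lower, RPL22L1, against 6.62% and 6.58% of all genes. The median log2 fold change was −0.12 with 73 of 84 genes negative, against −0.01 over all genes. Both labelled libraries lay below both controls in 65 of 84 genes (77.4%) and above both in 6, against 36% and 33.6% of all genes.

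The pooled fit lent experiment 2 the wider spread of experiment 1. The common biological coefficient of variation was 21.4% with both experiments, 26.7% with experiment 1 alone and 3.39% with experiment 2 alone. With experiment 2 fitted alone, 49 of 83 members were called lower and 4 higher, against 22.6% and 21.9% of 17481 genes, with a median log2 fold change of −0.11 against 0.01 over all genes. Of large-subunit genes 29 of 48 fell, of small-subunit genes 17 of 32 and of stalk genes 3 of 3. The narrow spread of experiment 2 may be that of technical replicates, as no label says otherwise.

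The largest falls in that fit were those of genes with moderate or few reads. RPL22L1 measured 28.8 and 22.8 CPM with the MYC knockdown label, against 38.0 and 44.8 CPM in their controls, and fell by 0.66 in log2 (SE 0.13, adjusted p = 0.00621 by edgeR with experiment 2 alone). RPL22 measured 94.7 and 89.0 CPM in the labelled libraries and 109 and 113 CPM in the controls, and fell by 0.26 (SE 0.05). Neither gene overlapped between the groups, and RPL22L1 made up 23.3% and 20.4% of the summed CPM of the pair in the labelled libraries and 25.9% and 28.5% in the controls. RPL17 fell by 0.59 (SE 0.12). It measured 6.33 and 4.91 CPM in the labelled libraries and 8.45 and 8.80 CPM in the controls.

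Among abundant members RPSA stood lowest. It measured 833 and 807 CPM with the MYC knockdown label, against 1068 and 1059 CPM in their controls, and fell by 0.36 (SE 0.04, adjusted p = 6.22e-11 by edgeR with experiment 2 alone). RPSA was also the 1 member called lower when the fit of all libraries had a term for the parts of experiment 1. RPS2 fell by 0.31 (SE 0.04) and RPS3, which lines the mRNA entry channel, by 0.30 (SE 0.04), and both were named after their values were seen. RPLP1 fell by 0.23 (SE 0.04) and RPL5 by 0.20 (SE 0.04), RPLP2 by 0.13 (SE 0.04) and RPLP0 by 0.12 (SE 0.04). RPS6 (−0.07, adjusted p = 0.14), RPS19 (−0.08, 0.088), RPL11 (−0.09, 0.055), RPS14 (−0.04, 0.392) and RPL10 (−0.03, 0.573) did not pass with experiment 2 alone. RPL13A, with 2434 and 2428 CPM in the labelled libraries and 2434 and 2391 CPM in the controls, had 0.02 (SE 0.04, adjusted p = 0.687).

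The 4 members that rose with experiment 2 alone included RPL7L1 and RPS28, both named above. RPL7L1 measured 145 and 145 CPM with the MYC knockdown label, against 124 and 123 CPM in the controls, a rise of 0.24 on the log2 scale (SE 0.04, adjusted p = 6.42e-06 by edgeR with experiment 2 alone). RPS28 measured 255 and 279.6 CPM in the labelled libraries and 240.3 and 229.9 CPM in the controls (0.19, SE 0.04). RPL15 (0.14, SE 0.04) and RPL14 (0.13, SE 0.04) were the others, chosen after their values were seen. In the fit of all libraries RPL7L1 had 0.23 (SE 0.13, adjusted p = 0.481).

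**Figure D5:**
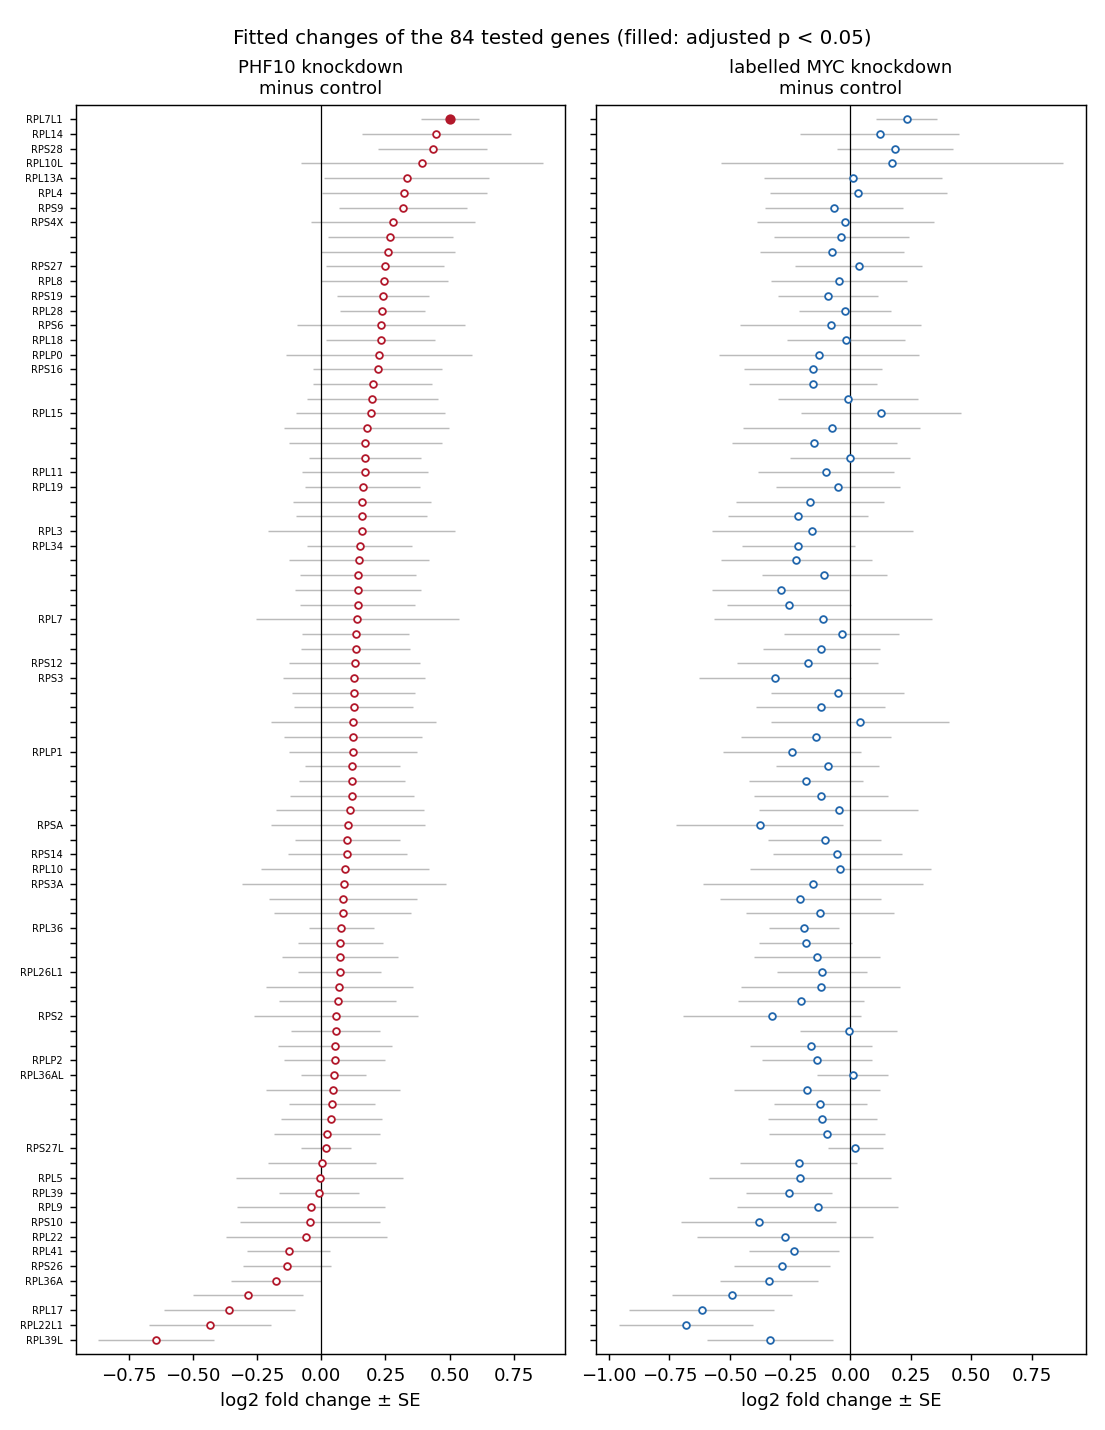
Log2 fold changes (points) with SE (lines) of the 84 tested genes from the edgeR fit of all libraries, for PHF10 knockdown minus control (left) and labelled MYC knockdown minus control (right), in one order with only genes named in the text labelled; the filled point passed at adjusted p under 0.05. On the left 72 of 84 points lie above 0 and RPL7L1 is filled, and on the right 73 lie below 0 and none is filled.

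The difference between the responses was tested as the PHF10 effect minus the labelled MYC effect. By edgeR 0 members were called higher and 0 lower, against 0.26% and 0.125% of all genes. DESeq2 also called 0, against 1.97% higher and 1.46% lower of all genes, and limma-voom 0, against 0.179% and 0.136%. At an unadjusted p under 0.05 edgeR gave 0 in either direction, against 6.18% higher and 5.51% lower of all genes. The median difference was 0.25 on the log2 scale, with 82 of 84 positive, against 0.01 over all genes. RPSA had the largest (0.48, SE 0.46, adjusted p = 0.802) and RPL39L the lowest (−0.31, SE 0.35). The 4 with the smallest unadjusted p were RPL7L1 (0.27), RPL36 (0.27), RPS19 (0.33) and RPL34 (0.37), with edgeR adjusted p-values of 0.632 to 0.761. The median was −0.04 without control replicate 1 of experiment 1 and 0.58 without control replicate 2.

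The controls of experiment 2 were also set against those of experiment 1, where any difference between the experiments cannot be told apart from a batch. RPL7L1 was higher (log2 fold change 0.51, SE 0.13, edgeR adjusted p = 0.0269) and RPS27L lower (−0.86, SE 0.11, adjusted p = 0.00184), against 8.05% of all genes higher and 6.6% lower. The call of RPL7L1 was lost with upper-quartile factors (edgeR adjusted p = 0.0549), without either control of experiment 1 (0.163 without replicate 1 and 0.0606 without replicate 2), without either control of experiment 2 (0.161 and 0.149) and without either library labelled MYC knockdown (0.0581 and 0.058). RPS27L (ENSG00000185088, chr15:63125872-63158021, minus strand), a paralog of RPS27 and a known p53 target, measured 73.2 and 70.3 CPM in the controls of experiment 2 and 127 and 133 CPM in those of experiment 1. It was even within experiment 1, at 124, 137, 133 and 135 CPM in PHF10 knockdown, and had 68.2 and 77.4 CPM in both libraries labelled MYC knockdown. RPS27 measured 736 and 712 CPM in the controls of experiment 2 and 449 and 679.6 CPM in those of experiment 1 (0.36, SE 0.26, adjusted p = 0.391). RPL22L1 measured 38.0 and 44.8 CPM in the controls of experiment 2 and 65.4 and 90.9 CPM in those of experiment 1 (−0.92, SE 0.28, adjusted p = 0.0555).

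The family's median between the controls depended on which control of experiment 1 entered. It was 0.26 with both, −0.03 without replicate 1 and 0.61 without replicate 2. Both controls of experiment 2 lay above both of experiment 1 in 29 of 84 genes and below both in 8, against 34.5% and 33.5% of all genes. Without the 3 libraries of experiment 1 with fewer reads outside genes, 63 members were called higher and 1 lower, against 8.14% and 7.24% of all genes. Without the 3 with more there were 3 of each, against 9.26% higher and 6.93% lower of all genes. Upper-quartile factors moved the median of all genes in this comparison to −0.13, where the members' median was 0.15.

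FAU and RACK1 encode proteins of the cytosolic ribosome under other symbols. FAU encodes a ubiquitin-like fusion of eS30, and RACK1 is a scaffold on the small subunit. RACK1 measured 1172, 1084, 1832 and 1811 CPM in PHF10 knockdown and 1043 and 1703 CPM in the controls. It measured 1709 and 1664 CPM with the MYC knockdown label, against 1804 and 1766 CPM in their controls. RACK1 thus showed the same low and high libraries in experiment 1 as the members did. FAU and RACK1 had log2 fold changes of 0.07 and 0.10 after PHF10 knockdown and of −0.08 and −0.08 in the labelled comparison, neither past the threshold.

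Other genes of the translation machinery were described from lists chosen with earlier results known. Of 20 tested genes outside the ribosome whose mRNAs carry the tract, 0 passed after PHF10 knockdown (median −0.02) and 0 in the labelled MYC comparison (median −0.12). Of 60 ribosome biogenesis factors 0 rose and 1 fell after PHF10 knockdown (median −0.21), and 0 passed in the labelled MYC comparison (median −0.27). Of 34 eIF genes and 77 mitochondrial ribosomal protein genes 0 passed in either comparison, with medians of −0.06 for both after PHF10 knockdown and −0.18 for both in the labelled comparison. With experiment 2 alone 47 of 60 biogenesis factors, 44 of 77 mitochondrial genes, 22 of 34 eIF genes and 11 of 20 tract genes fell, beside 49 of 83 members. In the same order 0, 4, 4, 2 and 4 rose, and of all genes 22.6% fell and 21.9% rose. With the term for the parts of experiment 1, 13 of 60 biogenesis factors fell and 1 rose after PHF10 knockdown. Of 84 members 0 fell and 15 rose, against 7.56% and 5.82% of all genes.

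The tract genes outside the ribosome also split experiment 1. Their mean log2 CPM was 8.40, 8.47, 9.18 and 9.11 in replicates 1 to 4 of PHF10 knockdown, against 8.52 and 9.22 in control replicates 1 and 2. The mean over the 84 members was 8.22, 8.19, 8.75 and 8.78 in PHF10 knockdown and 8.07 and 8.68 in the controls. EEF1A1, which delivers aminoacyl-tRNA to the ribosome, measured 2432, 2339, 5209 and 5567 CPM in PHF10 knockdown and 2014 and 4655 CPM in the controls. The 34 eIF genes split experiment 1 too, at 7.03, 7.06, 7.40 and 7.39 in PHF10 knockdown and 7.12 and 7.49 in the controls. Mitochondrial ribosomal protein genes had a narrower split, at 5.06, 5.11, 5.38 and 5.35 in PHF10 knockdown and 5.11 and 5.42 in the controls. In the biogenesis factors the low and high libraries overlapped, at 6.19, 6.01, 6.27 and 6.4 in PHF10 knockdown and 6.33 and 6.56 in the controls. NPM1 and SNHG1, a nucleolar protein and a snoRNA host with the tract, had log2 fold changes of −0.59 and −0.71 after PHF10 knockdown (edgeR adjusted p = 0.339 and 0.1).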

How the data were processed

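Poly(A)-selected RNA from A375 cells was sequenced from directional libraries as single 100 nt reads, per the labels' protocols. Reads were trimmed with cutadapt and aligned with STAR; the submitters' processing notes name these tools and the build GRCh38.p13 (hg38). The sources used here give neither versions nor the annotation counted. The authors deposited raw counts per Ensembl gene, in an unstranded and 2 stranded columns. Column 4 (opposite strand) was used, since the same-strand column held 5.26% to 5.55% of stranded gene reads. Reads in the summary lines (19.1% to 23.6% of a library) entered no library size. Total reads were 26.1 to 47.6 M.

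Symbols were matched in a gene name table (60295 IDs) and in GENCODE 29 (58516 IDs); 19 IDs were in neither. RPS27AP5 is coding in GENCODE 29 and a pseudogene in RefSeq, and was left out. All 10 libraries were fitted as 4 group means in edgeR 4.0.16 (R 4.3.3; quasi-likelihood, robust, TMM, filterByExpr), with 6 residual degrees of freedom and Benjamini-Hochberg adjustment over all 18450 genes. Alternatives used DESeq2 1.42.0, limma 3.58.1 (voom), other factors, filters, columns and subsets. The test was also run on simulated data in which each gene varied independently. That check does not cover shifts shared by many genes of a library. CPM are over TMM-scaled sizes; mean log2 CPM uses a prior count of 2.

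Members, gene lists and tests were chosen with earlier results of these data known. Named genes were the paralogs and the genes they are named after, called members or the 4 with the smallest p per comparison, 10 members with known roles, the 3 highest and 3 lowest per kb, FAU, RACK1, PHF10, MYC, and up to 4 non-ribosomal tract genes per comparison. Some genes that this rule names are not reported here.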

Additional observations from a re-analysis of the deposited data

How the results depend on the processing

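With 1 library left out the members' median ran from −0.17 to 0.50 after PHF10 knockdown, from −0.15 to −0.11 in the labelled MYC comparison, from −0.04 to 0.58 in the difference and from −0.03 to 0.61 between the controls. The medians changed sign without control replicate 1 of experiment 1 after PHF10 knockdown (−0.17), in the difference (−0.04) and between the controls (−0.03), and between the controls also with the term for the parts (−0.02) and without the libraries with more reads outside genes (−0.03). The count called higher after PHF10 knockdown was 0 with no filter (2.88% of all genes), with each experiment alone (0.129%) and with the replicate block (1.98%), 0 to 1 with 1 library left out (0.343% to 3.52%), 15 with the term for the 2 parts of experiment 1 (5.82%), 3 without the libraries with more reads outside genes (1.84%) and 0 without those with fewer (0.701%). The count lower was 0 to 1 with 1 library left out (RPL39L, without PHF10 knockdown replicate 3), against 0.689% to 4% of all genes. In the labelled MYC comparison, 4 were higher and 49 lower with experiment 2 alone, against 21.9% and 22.6%. There 1 was lower with no filter (RPL22L1; 1.16% of all genes) and 1 with the term (RPSA; 1.59%), and 4 without the libraries with more reads outside genes (RPL22L1, RPSA, RPS2 and RPS3), against 2.85%. In the difference of responses 1 was higher with the term (RPSA), against 1.54%.

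Between the controls, the count higher was 0 with upper-quartile factors (5.57% of all genes), 8 with no filter (5.3%), 0 to 1 with 1 library left out (1.92% to 10.3%), 4 with the term (10.4%), and 3 and 63 without the libraries with more and with fewer reads outside genes (9.26% and 8.14%). The count lower was 3 with upper-quartile factors (9.16%) and with no filter (4.33%), and 2 with DESeq2 (9.11%) and with a filter of 1 CPM in 4 libraries (8.68%). It was 1 to 3 with 1 PHF10 knockdown library left out (6.44% to 8.32%) and 5 with the term (8.68%). The cause of these changes was not tested.

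With the replicate block the median after PHF10 knockdown was −0.16 and that of the difference −0.03. The block left 2 residual degrees of freedom. It gave PHF10 knockdown replicates 3 and 4 terms of their own, so its medians rest on replicates 1 and 2. PHF10 knockdown replicate 2, with more reads outside genes (12.3%), was thereby set against a control with fewer (9.93%). Whether the numbers pair the libraries could not be settled: deviations of same-numbered libraries correlated at 0.48 and −0.30 in experiment 1 and at −0.03 in experiment 2. The 2 controls of experiment 1 deviate from their mean by opposite amounts, so 0.48 and −0.30 are not independent values. The planned division of experiment 1 at the largest gap singled out PHF10 knockdown replicate 1 alone, with a median of 0.22. The term for 3 against 3 libraries and both subsets were chosen after seeing the data. Each subset left 1 control in experiment 1. Among named genes, 4206 values kept their side of the threshold and direction, 101 joined the calls, 25 left them and 269 uncalled ones changed sign.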

Other observations

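RPL22L1 and RPS27L took a larger share of their pairs in every library of experiment 1 than in any of experiment 2. RPL22L1 made up 48.6%, 37.7%, 34.6% and 39.7% of the summed CPM of RPL22L1 and RPL22 in replicates 1 to 4 of PHF10 knockdown, against 49.2% and 43.7% in the controls of experiment 1. In experiment 2 it made up 23.3% and 20.4% in libraries labelled MYC knockdown, against 25.9% and 28.5% in the controls. RPS27L made up 18.2%, 20.7%, 14.2% and 14.5% of its pair with RPS27 in PHF10 knockdown and 22.1% and 16.4% in the controls of experiment 1, and 8.38% and 9.5% in the labelled libraries and 9.04% and 8.98% in the controls of experiment 2. RPL36AL, a retrocopy of RPL36A, made up 75.8% to 84.8% of its pair in every library, and its level per kb (98.1 CPM) was above that of RPL36A (4.67 CPM). RPL36A shared 8.4% of its exon bases with the readthrough gene RPL36A-HNRNPH2, and reads that fell on both genes were not counted. Its annotated exons cover 3964 bases, against 746 for RPL36AL. The part of either in these values was not tested.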
